A study of Homo sapiens with 6 samples.

Results

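CCND1, CDKN1A and CENPF encode a cyclin, a cyclin-dependent kinase (CDK) inhibitor and a mitotic protein, and they were described here in LX-2 cells, an established human hepatic stellate cell line, given ALB (albiflorin, a monoterpene glycoside) after TGF-β1. They were taken by name from the deposited table and make up 3 of its 937 genes. The ALB group (3 libraries) received TGF-β1 at 20 ng/mL during 24 h, followed by ALB during another 24 h, and the TGF-β1 group (3 libraries), which the labels call control, received the same TGF-β1 followed by plain medium. No library of untreated cells was used, so both groups share TGF-β1, and the ALB dose of the sequenced cells is not given in the sources used here. Replicate numbers are those of the table's columns, and the study's mention of independent experiments covers its data in general, without saying that these libraries came from separate cultures, so their spread may be technical. Replicates of a group differed by a chi-square of 20.3 to 120 per gene, far beyond counting noise. The line is a single immortalised one, and proliferation in it is not that of stellate cells in the liver.

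Progress through G1 depends on D-type cyclins, which activate CDK4 and CDK6 to phosphorylate the retinoblastoma protein and release the E2F factors. CDKN1A encodes p21, which binds cyclin and CDK complexes and the replication clamp PCNA, and is raised by p53 and by TGF-β signalling. CENPF encodes a large coiled-coil protein that accumulates in G2, sits on kinetochores in mitosis and is degraded as cells divide, so its transcript is often read as a mark of dividing cells. In fibrotic liver, activated stellate cells proliferate as well as deposit matrix.

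Depth was estimated from the ratio of counts to FPKM (fragments per 1 kilobase of transcript and 1000000 fragments sequenced), since the table holds selected genes only. It came to 35800000 to 41600000 fragments per ALB library and 33800000 to 38200000 per TGF-β1 library. GEO's labels give hepatocyte as the cell type, although the line is stellate. The table holds only genes called as different between the groups. A marker's absence from it therefore does not show that the marker was not expressed, and cell identity is not read from it. Of 13 hepatocyte markers 0 were in the table, and of 18 stellate markers 5 were (COL1A2, COL3A1 and TAGLN, lower with ALB, and PDGFRA and NGFR, higher with ALB), with a summed level of 122 to 202 FPKM in ALB libraries and 239 to 405 FPKM in TGF-β1 libraries. Among markers of other cells, 4 of 7 epithelial or biliary genes were in the table (KRT7, KRT8, KRT18 and SOX9, summing to 122 to 160 FPKM with ALB and 290 to 296 FPKM without it). Both endothelial markers in the table, PECAM1 and TEK (2 of 6 listed), summed to 0.821 to 1.03 FPKM with ALB and 1.64 to 2.12 FPKM without it. ITGAM, the only one of 6 leukocyte markers there, had 0.262 to 0.610 FPKM with ALB and 0.142 to 0.199 FPKM without it. The part of these shifts in the results below was not tested.

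The promoters of CENPF, of the mitotic gene ASPM and of CDKN1A are shown because the mitotic pair was lower and CDKN1A higher with ALB. Each run is the 250 bases before the RefSeq gene start (GRCh38.p14), at chr1:214602945-214603194 on the plus strand for CENPF, chr1:197146670-197146919 on the minus strand for ASPM and chr6:36678464-36678713 on the plus strand for CDKN1A. Capitals mark CCAAT boxes (CCAAT) and cell cycle homology regions (CHR, TTTGAA or TTTAAA) on either strand in the mitotic pair, and GC boxes (GGGCGG) in CDKN1A. A shorter run for CENPF covers the last 30 bases of the searched window, after the start (chr1:214603215-214603244).
CENPF: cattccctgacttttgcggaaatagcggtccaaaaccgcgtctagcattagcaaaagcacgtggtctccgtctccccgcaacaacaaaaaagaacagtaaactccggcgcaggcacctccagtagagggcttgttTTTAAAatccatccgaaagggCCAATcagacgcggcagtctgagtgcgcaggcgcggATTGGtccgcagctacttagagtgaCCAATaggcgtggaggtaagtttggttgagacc
CENPF after the start: ccggtggcggctgcgggcagTTTGAAttag
ASPM: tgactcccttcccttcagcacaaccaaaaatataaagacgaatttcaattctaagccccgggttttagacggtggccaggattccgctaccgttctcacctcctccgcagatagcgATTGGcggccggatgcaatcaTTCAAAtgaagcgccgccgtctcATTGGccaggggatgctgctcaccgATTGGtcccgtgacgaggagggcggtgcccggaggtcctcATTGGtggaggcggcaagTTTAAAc
CDKN1A: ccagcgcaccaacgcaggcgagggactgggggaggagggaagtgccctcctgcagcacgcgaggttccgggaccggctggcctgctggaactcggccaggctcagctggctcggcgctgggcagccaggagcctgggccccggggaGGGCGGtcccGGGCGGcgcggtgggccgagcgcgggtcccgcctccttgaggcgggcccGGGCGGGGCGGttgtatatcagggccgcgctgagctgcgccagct

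Motifs were searched on both strands of the 300 bases around each start in 35116 RefSeq promoters. CENPF and ASPM each held 4 CCAAT boxes, a number reached by 0.991% of promoters, while 34.6% held at least 1. In CENPF 3 of these lie in the printed run before the start. Both also held 1 TTTGAA and 1 TTTAAA, which 15.2% and 12.2% of promoters contain. CDKN1A had none of these, and held 4 GC boxes (at least that many in 9.06% of promoters, at least 1 in 45.0%), of which the last pair share a base. CCAAT boxes and CHR elements are known from many G2 and M phase genes, where NF-Y and the MuvB complexes bind them. Of the other motifs searched, an AP-1 site (TGANTCA, in 7.71% of promoters) and a CRE core (TGACGT, 7.98%) were in none of the 3 windows. ASPM held a GC box and a TATAAA stretch (the letters of a TATA box, 11.5%). CENPF held a TEAD site (GGAATG, 14.0%) and CDKN1A an E2F core (GCGGGA, 26.9%). Each of these was 1 match. The TATAAA of ASPM lies at -220 from the gene start, and the TEAD match of CENPF at -250, the first base of the window. A match of letters is not a bound site, and no binding was measured here.

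CCND1, the G1 cyclin, was the most abundant of the 3 genes and stood 15th in the table by mean FPKM. It lies on chromosome 11 from 69641087 to 69654474 on the plus strand (GRCh38, GENCODE 29). Its counts were 16385, 14188 and 19604 in ALB replicates 1 to 3, against 31911, 30010 and 26259 in TGF-β1 replicates 1 to 3. As FPKM these were 108, 94.3 and 112 with ALB, against 199, 201 and 185 without it. The groups were far apart: every ALB library lay well under every TGF-β1 library. The means were 105 ± 9.33 FPKM with ALB and 195 ± 8.65 FPKM without it (SD, n = 3 each), which is -0.89 ± 0.15 on the log2 scale (fold change ± standard error, edgeR), or 1.85-fold lower. Its spread was small, with a coefficient of variation of 8.90% in ALB libraries and 4.44% in TGF-β1 libraries, against medians of 20.5% with ALB and 13.5% without it over the 618 genes with a mean of at least 1 FPKM.

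CDKN1A was higher with ALB. The gene lies on chromosome 6 from 36676460 to 36687339 on the plus strand. Its counts were 7968, 9243 and 6419 with ALB, against 2666, 3196 and 2223 without it, and its levels were 106, 123 and 73.3 FPKM with ALB, against 33.0, 42.5 and 31.3 FPKM without it. The lowest ALB library still had more than the highest TGF-β1 library. Means were 101 ± 25.1 FPKM with ALB and 35.6 ± 6.05 FPKM without it (SD, n = 3 each). The log2 fold change was 1.49 (standard error 0.23, edgeR), or 2.82-fold higher. By mean FPKM it was 17th in the ALB group and 74th in the TGF-β1 group, while CCND1 was 16th in either. The inhibitor's transcript, well under that of the cyclin without ALB, thus stood beside it with ALB.

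CENPF, the mitotic gene, was the least abundant and the most variable. It lies on chromosome 1 from 214603195 to 214664588 on the plus strand. Its counts were 2098, 3196 and 1479 with ALB, against 4497, 3088 and 4825 without it. Its levels were 6.01, 9.22 and 3.83 FPKM with ALB, against 11.8, 8.66 and 14.3 FPKM without it. Here the groups overlapped, since ALB replicate 2 was above TGF-β1 replicate 2. Means were 6.36 ± 2.71 FPKM with ALB and 11.6 ± 2.85 FPKM without it (SD, n = 3 each), which is -0.92 ± 0.32 on the log2 scale (fold change ± standard error, edgeR), or 1.89-fold lower. The coefficient of variation was 42.7% with ALB and 24.5% without it, and of the 618 genes 70 varied more with ALB and 122 without it. Counting error does not set this spread, as the smallest count of the gene has a Poisson error of 2.60%. In bulk RNA, fewer cells in G2 and mitosis and less CENPF RNA per such cell cannot be told apart.

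**Figure D1:**
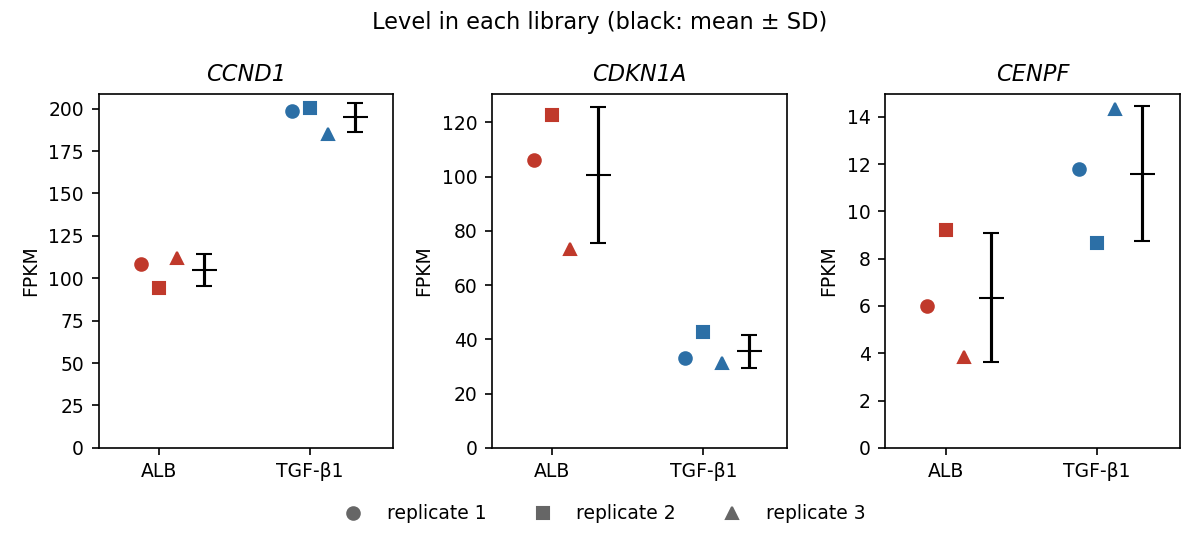
Level of CCND1, CDKN1A and CENPF in FPKM (vertical axes, from 0) in each of 3 ALB libraries (red) and 3 TGF-β1 libraries (blue), with marker shapes for the replicate number and black bars for the mean ± SD. CCND1 is lower and CDKN1A higher in every ALB library, while for CENPF the ALB replicate at 9.22 FPKM lies above the TGF-β1 replicate at 8.66 FPKM.

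The members had been picked from genes that the authors kept for a fold change over 2 and P under 0.01 in these libraries, so their differences are given as a description and not as a test. All 3 passed the threshold of edgeR's quasi-likelihood test (Benjamini-Hochberg adjusted p under 0.05 over the table), but so did 931 of the 937 genes (99.4%), and nothing is read from it. CCND1 and CDKN1A were among the 895 genes (95.5%) whose groups did not overlap in FPKM, and CENPF was among the 42 (4.48%) that did overlap. CCND1 and CENPF also stood near the weak end of the 537 lower genes, where the median log2 fold change was -1.39: 5 of them had a smaller change than CCND1 and 34 a smaller change than CENPF. At the estimated depths the smallest changes in the table were -0.88 (BIRC6) and 1.11 (ZNF620), so both genes lay just inside its lower edge and under 2-fold. These edges are not symmetric, so the estimated depths may be offset from the authors' scaling. With depths moved to make them symmetric, chosen after seeing the data, CCND1 had -1.004, CENPF -1.04 and CDKN1A 1.38. CDKN1A was 158th of the 400 higher genes by fold change.

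**Figure D2:**
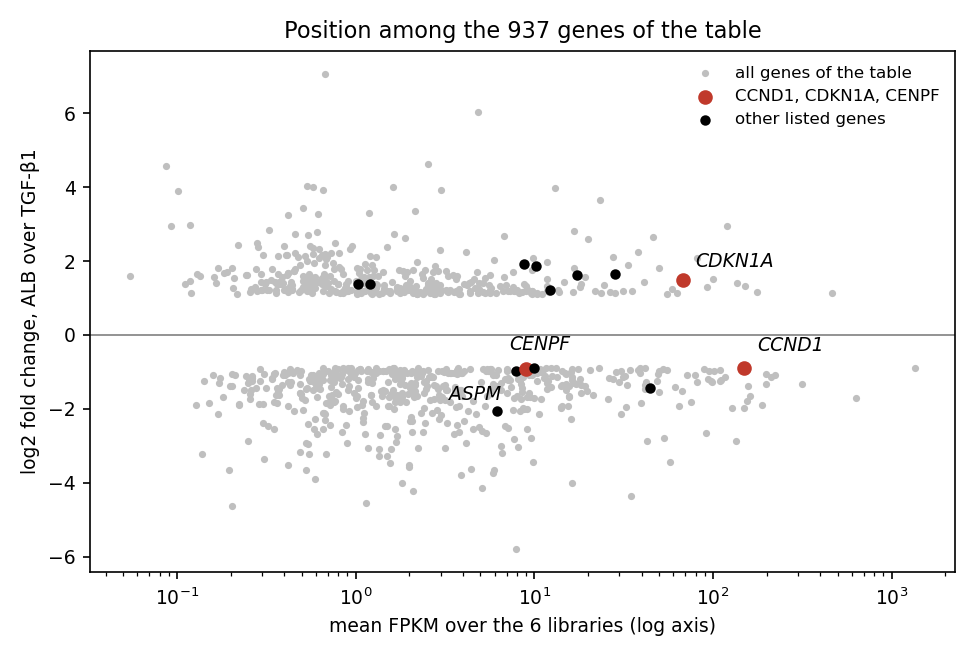
Log2 fold change of ALB over TGF-β1 (vertical axis, edgeR at the estimated depths) against the mean FPKM over 6 libraries (horizontal log axis) for the 937 genes of the table (grey), with CCND1, CDKN1A and CENPF in red and the other listed genes in black. CCND1 (-0.89) and CENPF (-0.92) lie along the lower edge of the empty band around 0 that the authors' selection left, and CDKN1A (1.49) lies inside the upper cloud.

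Because the ratio of a pair of genes in the same library does not depend on its depth, the members were also set against each other. CDKN1A stood to CCND1 as 0.979, 1.30 and 0.655 in ALB replicates 1 to 3, against 0.166, 0.212 and 0.169 in TGF-β1 replicates 1 to 3 (ratios of FPKM). The mean log2 ratio was -0.09 ± 0.50 with ALB and -2.46 ± 0.20 without it (SD, n = 3 each), a difference of 2.38, or 5.20-fold. Against CENPF, CDKN1A was 17.7, 13.3 and 19.1 times as high with ALB, and 2.80, 4.91 and 2.18 times as high without it. That difference was 2.41 on the log2 scale, with mean log2 ratios of 4.04 ± 0.28 with ALB and 1.64 ± 0.60 without it. Neither ratio to CDKN1A overlapped between the groups. CDKN1A had been selected as higher in these libraries, and CCND1 and CENPF as lower. Such gaps are therefore largely set by the selection and are a description only. CENPF and CCND1 both lay near the edge that the authors' fold selection left, so nothing is read from their like mean change. Library by library they did not move alike. The ratio of CENPF to CCND1 was 0.0555, 0.0978 and 0.0343 with ALB, against 0.0593, 0.0432 and 0.0776 without it. The groups overlapped throughout, with a mean difference of -0.03 on the log2 scale and SDs of 0.76 with ALB and 0.42 without it.

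**Figure D3:**
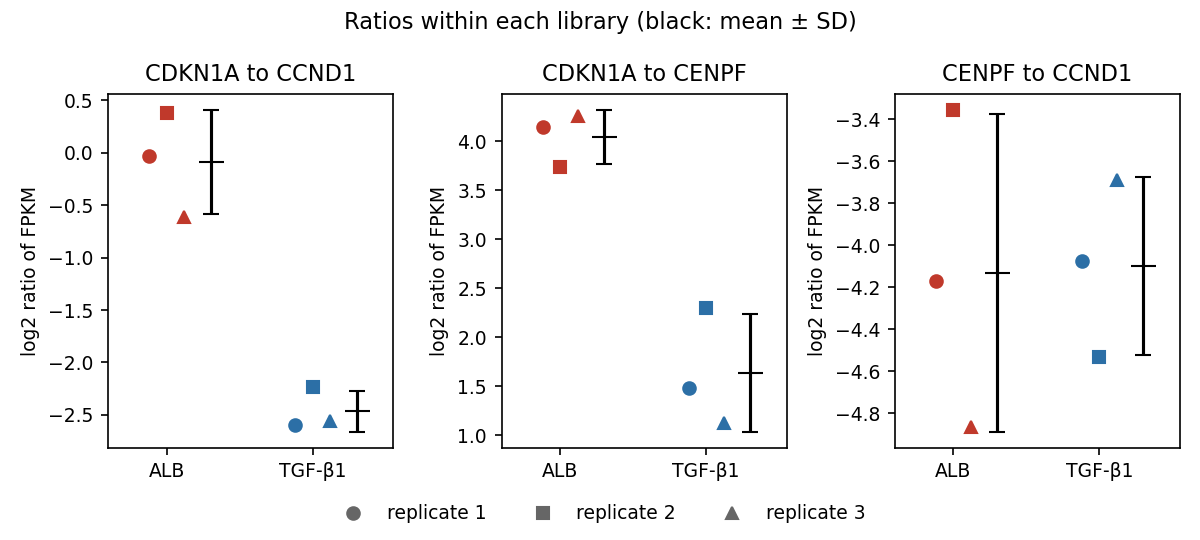
Log2 ratio of FPKM within each library for each pair of the 3 genes (vertical axes, not from 0), with ALB libraries in red, TGF-β1 libraries in blue and black bars for the mean ± SD. Both ratios with CDKN1A on top are higher in every ALB library (differences of 2.38 and 2.41), whereas the ratio of CENPF to CCND1 overlaps. The gaps with CDKN1A are largely set by the selection of the genes.

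The order of the libraries inside a group was also compared between the members. Among ALB libraries CDKN1A and CENPF were highest in replicate 2 and lowest in replicate 3, an order shown by 249 of the 937 genes (26.6%) and by 10 of the 14 listed genes described next. CCND1 had the opposite order, lowest in replicate 2 and highest in replicate 3, which 61 genes (6.51%) shared. Among TGF-β1 libraries CENPF was highest in replicate 3 and lowest in replicate 2, while CCND1 and CDKN1A were highest in replicate 2 and lowest in replicate 3. CENPF, ASPM, CDK6, CCNG2, EGR2 and AREG had the same order in both groups, as did 54 genes of the table (5.76%). The genes of a library share its RNA and are not independent, so these shares are a description.

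Genes of 12 lists around the cell cycle (312 genes in all) were looked up to place the members. The table held 14 of them. With ALB 8 were higher and 6 lower, each past edgeR's threshold, where 42.5% of the table's genes passed as higher and 56.9% as lower. Their median log2 fold change was 1.30, against -0.97 over the table. The selection left no change between -0.88 and 1.11, so a median mainly shows which direction holds more genes. Nothing is read from that contrast. The 14 listed genes too had been selected on the same libraries. A gene that is not in the table may have changed less, varied more or not been tested, and no value for it was analysed here.

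In the G1 machinery, CCND1 and CDK6 were both lower with ALB, although their libraries ran in opposite orders within each group. CDK6, a partner of D-type cyclins and 1 of 10 listed kinases in the table, had 6.86, 8.87 and 5.20 FPKM with ALB, against 13.0, 11.8 and 14.1 FPKM without it. The groups did not overlap, and the log2 fold change was -0.89 (standard error 0.21), about that of CCND1. Both lay at the edge that the authors' fold selection left, so nothing is read from their like size. Among 15 cyclins the other one in the table was CCNG2, an unconventional cyclin linked to growth arrest. It was higher, at 17.4 ± 2.07 FPKM with ALB and 7.02 ± 0.661 FPKM without it (SD, n = 3 each), or 1.23 ± 0.18 as log2 fold change ± standard error. CDKN1A was the only one of 8 CDK inhibitors in the table and the only one of 15 genes of the TGF-β cytostatic response. Of 20 RB, E2F and DREAM regulators, of 50 genes of the G1/S transition and DNA replication and of 13 genes of D-type cyclin turnover and partners, 0 were in the table.

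Of 86 mitotic genes only CENPF and ASPM were in the table, both lower with ALB, and of 36 centromere and kinetochore genes only CENPF. ASPM, a spindle pole protein needed for symmetric division of neural progenitors, had 5.43, 6.62 and 3.58 FPKM with ALB, against 10.4, 8.23 and 13.3 FPKM without it. Its groups did not overlap, and its log2 fold change was -0.98 (standard error 0.27). Replicate 3 was the lowest ALB library and the highest TGF-β1 library for both genes. Other widely used mitotic marks on the list, such as MKI67, TOP2A and CCNB1, were not in the table.

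Among 32 targets of p53, 4 were in the table, 3 of them higher with ALB. SESN2, a sestrin that restrains mTORC1 and is also raised by the stress factor ATF4, stood with CDKN1A on that side at 13.9 ± 3.30 FPKM with ALB and 3.67 ± 0.260 FPKM without it (SD, n = 3 each), or 1.92 ± 0.21 as log2 fold change ± standard error. BTG2, an antiproliferative gene, had 1.58 to 1.96 FPKM with ALB and 0.516 to 0.868 FPKM without it (log2 fold change 1.38, standard error 0.28). PLK2, a polo-like kinase with a role in centriole duplication, went the other way. It had 28.4, 22.4 and 20.9 FPKM with ALB, against 64.6, 63.9 and 65.1 FPKM without it, or -1.43 ± 0.17 as log2 fold change ± standard error. Of 19 GADD45 and growth arrest genes 3 were in the table, all higher: BTG2, DDIT3 and TXNIP. DDIT3, the stress-induced factor CHOP, was higher by 1.64 log2 units (standard error 0.24) and TXNIP, an inhibitor of thioredoxin, by 1.62 (standard error 0.21). DDIT3 and ATF3 were not on the p53 list and belong to the integrated stress response. SESN2 belongs to that response too, so it does not mark the p53 pathway alone.

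Of 32 early response genes to growth factors, 3 were in the table. EGR2, a zinc finger factor induced by growth factors, was lower, at 2.50, 3.65 and 0.966 FPKM with ALB and 10.3, 7.91 and 11.7 FPKM without it (log2 fold change -2.07, standard error 0.41). ATF3, a factor induced by stress and growth signals, was higher, at 15.9 ± 4.92 FPKM with ALB and 4.52 ± 1.43 FPKM without it (SD, n = 3 each; log2 fold change 1.87, standard error 0.29). AREG, amphiregulin, a ligand of the EGF receptor, had 67 to 71 counts in ALB libraries and 16 to 30 in TGF-β1 libraries, so its log2 fold change of 1.39 (standard error 0.33) rests on few fragments.

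**Figure D4:**
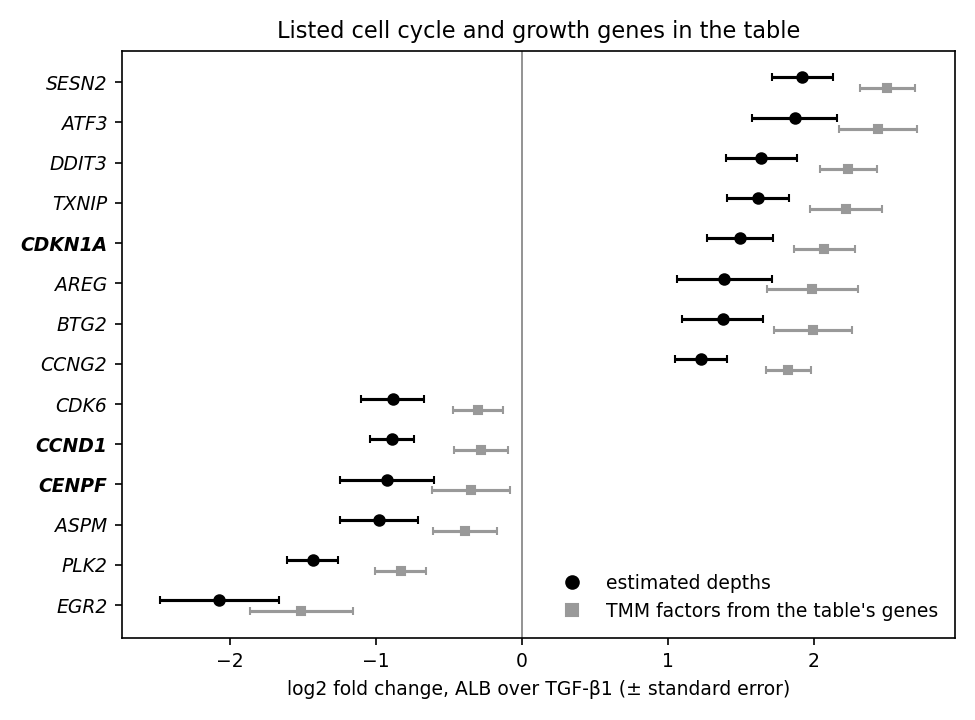
Log2 fold change of ALB over TGF-β1 (horizontal axis, bars ± 1 standard error) for the 14 listed genes in the table, at the estimated depths (black) and under TMM scaling (grey). CDK6, CCND1, CENPF and ASPM sit close together between -0.98 and -0.89 in black, near the edge left by the selection, and every gene shifts to the right in grey.

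The calls of the lower genes hung on how libraries were scaled. Scaling by TMM, or by the size factors DESeq2 computes itself, takes most genes as unchanged and raised the table's median by 0.61 and 0.71 log2 units. A table of called genes does not meet that assumption, so no conclusion on the lower genes is drawn from these scalings. TMM called 400 genes higher (42.7%) and 331 lower (35.3%), where the estimated depths gave 398 and 533, and DESeq2's factors called 29.7% lower. All 8 higher listed genes passed under both. Under either scaling 400 genes of the table (42.7%) passed as higher, as many as were higher at the estimated depths, so nothing is read from it. Of the lower listed genes only PLK2 and EGR2 passed. With TMM, CCND1 had a log2 fold change of -0.28 (adjusted p = 0.180, edgeR) and CENPF one of -0.35 (adjusted p = 0.238, edgeR), beside a table median of -0.37 under that scaling. CDKN1A had 2.07 there. The log2 fold change of CENPF also moved with single libraries. It was -1.30 without ALB replicate 2, -0.65 without ALB replicate 3 and -0.74 without TGF-β1 replicate 3. Without ALB replicate 1 it hardly moved (-0.89). CENPF missed the threshold without ALB replicate 1 (adjusted p = 0.0542, edgeR) and without TGF-β1 replicate 3 (adjusted p = 0.0708, edgeR). Leaving a library out also makes its group smaller, so nothing is read from these misses.

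The genes whose levels over the 6 libraries ran most like each member were found among 549 genes with a symbol and a mean of at least 1 FPKM, by the root mean square difference of log2(FPKM + 0.1) values centred per gene. For CENPF they were BIRC6, a very large inhibitor of apoptosis (0.12), ASPM (0.14) and ADGRG6, an adhesion receptor (0.14). This distance uses the values on which the genes were selected, the difference between the groups included, and CENPF, BIRC6 and ASPM all lay near the edge of that selection, so their likeness is a description only. For CCND1 they were TRIM58 (0.08), FOXP1, a forkhead factor (0.10), and ZNF488 (0.10). FOXP1 had 11.3 ± 0.309 FPKM with ALB and 23.2 ± 1.19 FPKM without it (SD, n = 3 each), as tight within groups as CCND1. For CDKN1A they were TMEM47 (0.10), GCHFR, a regulator of GTP cyclohydrolase (0.14), and ATP9A, a phospholipid flippase (0.14). TMEM47 was far less abundant, at 1.58 ± 0.401 FPKM with ALB and 0.498 ± 0.0901 FPKM without it.

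**Figure D5:**
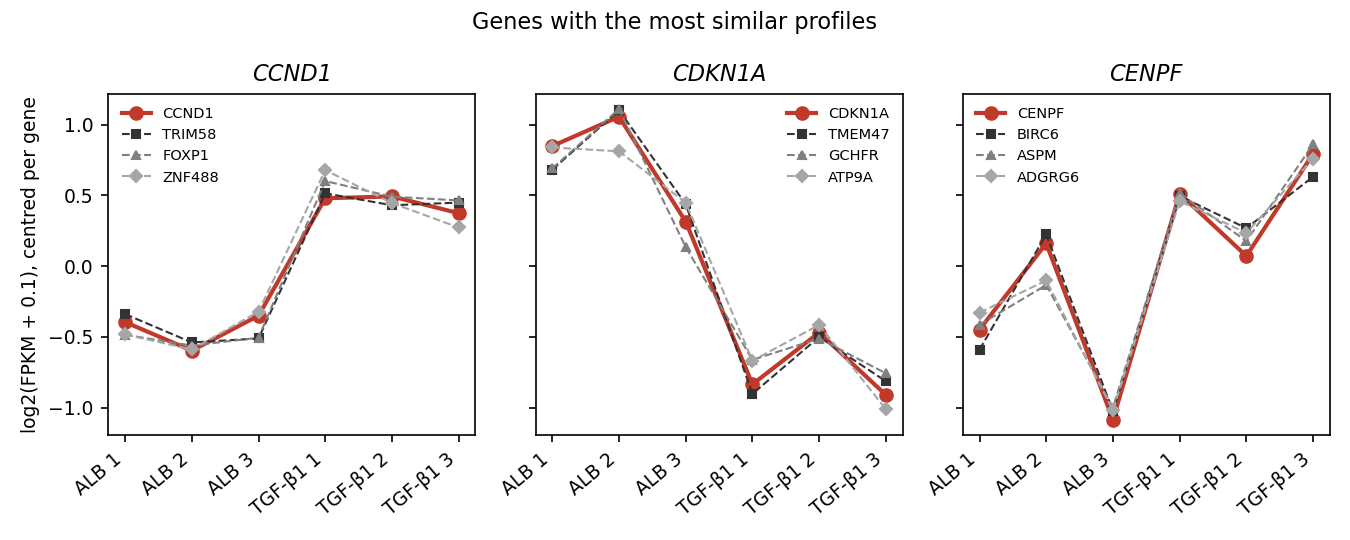
Centred log2(FPKM + 0.1) values (vertical axis) in the 6 libraries (horizontal axis) for CCND1, CDKN1A and CENPF (red) and the 3 genes most like each (grey shades), where lines only join the points of a gene. CENPF, ASPM, BIRC6 and ADGRG6 share the dip in ALB replicate 3 and the peak in TGF-β1 replicate 3, which CCND1 and its like genes lack.

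The length that the authors' FPKM values imply was also compared, and CENPF had the largest difference of the 3 genes. It is computed from the same deposited columns as the levels, as the count divided by FPKM and by the estimated depth, and it moves when the mix of assigned transcripts moves. For CCND1 it averaged 4210 ± 4.30 bases with ALB and 4202 ± 3.69 bases without it (SD, n = 3 each), and for CDKN1A 2101 ± 8.27 bases with ALB and 2110 ± 8.38 bases without it. The groups did not overlap for CCND1, at a difference of 0.190%, and overlapped for CDKN1A. For CENPF it was 9725, 9683 and 9279 bases with ALB, against 9997, 10010 and 9955 bases without it, so that all ALB libraries were lower, with a difference in means of -4.24%. The longest annotated transcript of CENPF has 10307 bases in GENCODE 29, and its 6 transcripts begin at 345 bases. Two-sided exact permutation tests gave p = 0.1 for CENPF and CCND1 and p = 0.4 for CDKN1A (0.15, 0.15 and 0.4 after Benjamini-Hochberg adjustment over the 3 genes). With 3 libraries a group no lower value than 0.1 is possible, so these tests could not pass 0.05 and nothing is read from them. Implied lengths did not overlap between the groups in 130 of 565 genes (23.0%), and 145 of those 565 changed more than CENPF.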

How the data were processed

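Libraries of poly(A) RNA (6, from LX-2 cells) were run on the NovaSeq X Plus. The authors deposited raw counts and FPKM for 937 genes that they had called with DESeq2 (fold change over 2, P under 0.01). CASAVA 1.4 and 2 mouse builds, mm9 and mm10, are listed in the submitters' processing notes, although the rows are human. The aligner, counter, human build and use of strand were not given in the sources used here. Columns were mapped by letter and number, and those with T were taken as the TGF-β1 group, whose titles say CON. There the number alone sets the library, on which no mean depends. The CCND1, CDKN1A and CENPF rows and the gene lists were chosen with earlier results of these data known.

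Relative depth was the median of count over FPKM in 565 genes whose counts reached 50 in each library, scaled by 42 genes with a single transcript in GENCODE 29. Of the 937 rows, 789 matched that annotation. Counts were fitted with edgeR 4.0.16 (R 4.3.3) at these depths over all rows, and Benjamini-Hochberg adjusted p-values were held against 0.05. Standard errors came from the fold change and the F statistic. Alternatives were DESeq2 1.42.0, TMM, limma 3.58.1 on log2(FPKM + 1) and log2(FPKM + 0.1), a minimum mean of 10 counts, a replicate block, each library left out, and, added after seeing the data, depths moved to make the fold boundary symmetric. Listed genes in the table could all be named, and up to 3 like genes per member by the distance given in the text. Promoter sequences are RefSeq's (GRCh38.p14). The set used here held CENPF, CDKN1A and ASPM but had no entry for CCND1, so the CCND1 promoter was not searched. Python 3.11.15 and scipy 1.17.1 were used.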

Additional observations from a re-analysis of the deposited data

How the results depend on the processing

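Over the alternatives run, the ratios of CDKN1A to CCND1 and to CENPF kept their direction, at 2.14 to 2.64 and 2.15 to 2.74 on the log2 scale with each library left out. The selection of these genes on the same libraries largely sets that direction. With each library left out the log2 fold change was -0.94 to -0.82 for CCND1, 1.32 to 1.68 for CDKN1A and -1.30 to -0.65 for CENPF, and 903 to 915 genes of the table were called. The difference in the ratio of CENPF to CCND1 had no stable sign (-0.42 to 0.34). Under TMM the log2 fold changes were -0.28 for CCND1, 2.07 for CDKN1A and -0.35 for CENPF, and with DESeq2's own size factors they were -0.18, 2.18 and -0.24. Under either scaling 2 of the 6 lower listed genes were called. These scalings assume that most genes are unchanged, which a table of called genes does not meet. With depths moved so that the fold boundary is symmetric, chosen after seeing the data, CCND1 had -1.004. The replicate block gave -0.99 for CENPF, -0.89 for CCND1 and 1.47 for CDKN1A and 925 called genes. Same-numbered libraries did not deviate together (correlations of 0.0677, 0.0019 and -0.0881), so they were not taken as pairs. CCND1, CDKN1A and CENPF had at least 1479 counts in every library, so depth limits them little.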
